A study of Homo sapiens with 5 samples.

Results

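Strong hotspots that lie between genes but near one were described here, in MCF10A cells, a human breast epithelial line that grows indefinitely without forming tumours. ATAC-seq uses the Tn5 transposase to insert adapters into open chromatin, and a hotspot is a region of local read enrichment called from those reads. All 5 replicates grew in 1 medium, which held insulin (10 µg/ml), cholera toxin (100 ng/ml), hydrocortisone (0.5 µg/ml), EGF (20 ng/ml) and 5% horse serum, and were read as pairs of 75 bases. Their reads were pooled before the calls, so the spread between replicates and the depth are both unknown.

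The members were selected on their score and place: a hotspot score of at least 10.04, a midpoint outside every protein-coding gene of GENCODE release 44, and a distance of more than 1000 and at most 100000 bp from the nearest protein-coding transcription start site (TSS). Chromosome 20, chromosome 5 beyond 120 Mb and the sex chromosomes were left out. This gave 7393 members among 157613 hotspots used, of 181723 in the list. Scores at or above the threshold were held by 20.7% of the hotspots used, in any place. The members were set beside 35697 weaker intergenic hotspots, which met the same rule for place but had a lower score, 8514 strong intronic hotspots, and 5996 strong gene desert hotspots more than 100000 bp from a TSS.

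Open chromatin between genes is where many enhancers lie, DNA elements that bind transcription factors and act on promoters at a distance. AP-1, the FOS and JUN dimer, binds many enhancers of epithelial cells and acts downstream of EGF. CTCF holds chromatin loops and insulates neighbouring domains, and SP and KLF factors and NRF1 bind CpG-rich promoters. Intergenic DNA also holds copies of retrotransposons and duplicated segments, where short reads can align to more than 1 place.

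Sequences of members were read from hg38 and are written 5′ to 3′ with the sites in capitals. They were drawn from 2525 members that are unique along their whole length, with those of 1 chromosome left out. The first 4 are stretches of the highest-scoring of these that hold at least 3 AP-1 sites (TGACTCA or, on the other strand, TGAGTCA), shown because AP-1 was the site most often found in unique members. Of the 2525 members, 40 held 3 or more AP-1 sites.
near SBF2, chr11:9759760-9759972, plus strand: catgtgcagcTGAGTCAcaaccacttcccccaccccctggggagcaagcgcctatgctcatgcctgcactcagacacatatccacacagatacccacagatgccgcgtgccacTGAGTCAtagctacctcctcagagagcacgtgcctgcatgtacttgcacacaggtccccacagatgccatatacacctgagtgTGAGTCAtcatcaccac
near C11orf96, chr11:43920783-43920927, plus strand: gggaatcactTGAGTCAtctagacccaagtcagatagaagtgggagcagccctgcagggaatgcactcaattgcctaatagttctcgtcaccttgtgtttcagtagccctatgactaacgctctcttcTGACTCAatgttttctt
near WEE1, chr11:9566144-9566290, plus strand: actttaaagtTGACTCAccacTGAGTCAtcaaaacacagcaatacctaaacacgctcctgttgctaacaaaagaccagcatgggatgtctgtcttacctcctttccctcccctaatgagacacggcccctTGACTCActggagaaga
near ZNF782, chr9:96884514-96884740, plus strand: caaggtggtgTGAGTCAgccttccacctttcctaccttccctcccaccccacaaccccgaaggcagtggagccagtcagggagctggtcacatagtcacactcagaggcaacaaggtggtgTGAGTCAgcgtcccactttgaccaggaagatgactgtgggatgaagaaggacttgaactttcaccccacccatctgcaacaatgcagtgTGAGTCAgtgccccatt

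The member near SBF2, which encodes a myotubularin-related protein, scored 42.0 and lay 28.9 kb downstream of the nearest TSS of that gene. The member near WEE1, a kinase that holds back mitosis, scored 29.3 and lay 7.55 kb upstream, and its first 2 sites start at positions 9566154 and 9566165. The last site of the member near C11orf96, which scored 35.6, starts at position 43921042, beyond the stretch shown. The member near ZNF782, a zinc finger gene, scored 24.8 and lay 8.95 kb upstream.

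Further single sites are shown from the highest-scoring of the same 2525 members that held them, since CTCF marks insulators and p63, TEAD and GRHL factors act in basal and epithelial cells.
CTCF site near EDN2, chr1:41432864-41432953, plus strand: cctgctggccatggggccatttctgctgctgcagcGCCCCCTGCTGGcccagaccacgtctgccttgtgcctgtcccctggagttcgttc
p53/p63 site near LCA5, chr6:79545213-79545302, plus strand: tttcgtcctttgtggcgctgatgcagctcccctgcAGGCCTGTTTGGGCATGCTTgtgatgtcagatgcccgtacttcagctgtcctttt
TEAD site near PTPDC1, chr9:94166621-94166710, plus strand: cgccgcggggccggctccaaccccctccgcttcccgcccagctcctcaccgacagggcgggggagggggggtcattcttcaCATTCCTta
GRHL site near NCKAP5, chr2:133641665-133641754, plus strand: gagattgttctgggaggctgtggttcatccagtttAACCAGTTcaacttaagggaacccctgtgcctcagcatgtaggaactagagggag

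These members scored 27.2 near EDN2, 26.7 near LCA5, 45.2 near PTPDC1 and 35.3 near NCKAP5, at 51.8, 7.73, 82.1 and 73.2 kb from the nearest TSS. The member near PTPDC1 lay at the promoter of MIRLET7A1HG, the host transcript of let-7 microRNAs, and was CpG-rich.

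Members ranged in score from 10.0 to 293 with a median of 14.6, with quartiles at 11.6 and 20.7. These scores were chosen by the rule. Just inside it, 2 members scored 10.0412, and just outside, the highest weaker hotspot scored 10.0395. The member nearest to a TSS lay at 1020 bp and the farthest at 99985 bp, while the strong intergenic hotspots just beyond these limits lay at 992 and 100001 bp. The median member was 495 bp wide, against 261 bp in weaker intergenic hotspots, 433 bp in strong intronic and 366 bp in strong gene desert hotspots. Width and score come from the same calls, and the widths were not tested.

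Sequence copy number split the members. It was measured as the share of a region's 31-mers that occur once in the genome. At least 95% of them did so in 3195 members, called single-copy (43.2%), against 50.7% of weaker intergenic hotspots, a difference of -7.53 points (95% interval -8.77 to -6.28). The share was 45.5% in strong intronic, 27.1% in strong gene desert and 55.0% in all hotspots used. Under 50% of the 31-mers occurred once in 3250 members, called multi-copy (44%), against 31.8% of weaker intergenic hotspots, 43.9% of strong intronic, 63.1% of strong gene desert and 30.9% of all hotspots used. That limit was set after the values were seen, and the difference of 12.2 points from weaker intergenic hotspots was 18.9 points with a limit of 25% and 7.63 points with a limit of 75%. A further 881 members lay in between, and 67 were shorter than 31 bp.

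**Figure D1:**
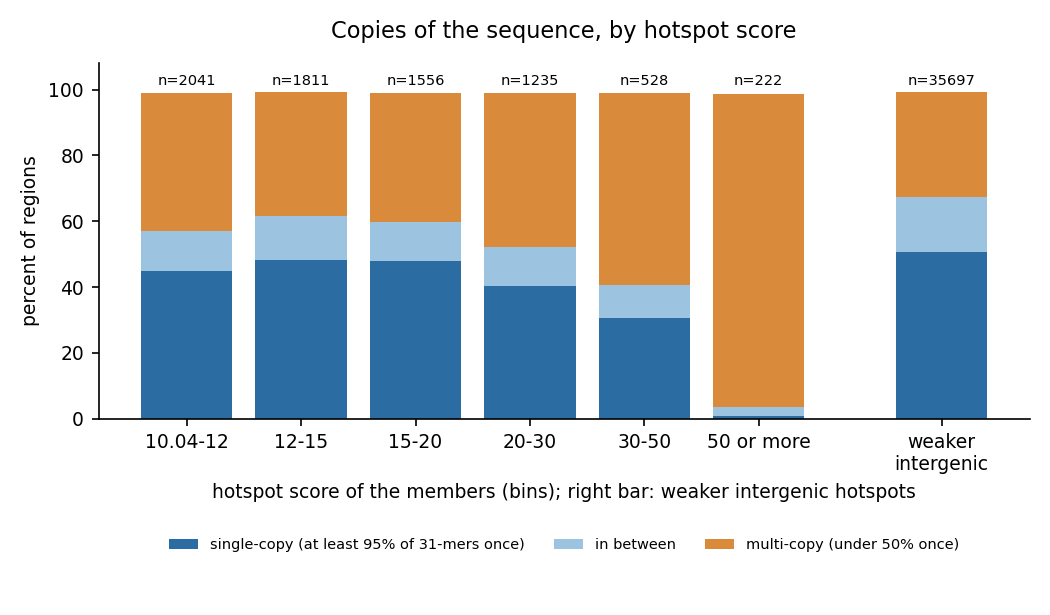
Percent of regions in each copy class (y axis), for members in 6 bins of hotspot score (left) and for weaker intergenic hotspots (right bar). The number of regions stands above each bar, and bars end below 100 because regions shorter than 31 bp have no class. Of the 222 members with a score of 50 or more, 95% were multi-copy.

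The highest scores belonged to multi-copy members. Among members scoring 15 to 20, 39.2% were multi-copy, at 30 to 50 it was 58.3%, and at 50 or more 211 of 222 were. Of the 100 highest-scoring members, 94 were multi-copy and 0 were single-copy. Reads were pooled by the authors with no filter on unique alignment given in the sources used here, and the part of multiple alignment in these scores was not tested.

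All 12 highest-scoring members had less than 30% unique 31-mers. They lay nearest to PRMT2 (score 293), NSUN5 (270), ZNF565 (228), USP17L8 (225), GOLPH3 (209), USP14 (203), ZNF780A (202), ZNF658 (194), EGFR (193), VWC2 (189), TLE1 (183) and IZUMO1R (170). Some were low-copy duplications: the 31-mers of the member near PRMT2, an arginine methyltransferase, had a median of 7 copies, and those near NSUN5, an RNA methyltransferase, had 3. Others were highly repeated. The member near EGFR, the receptor of EGF, lay 56.4 kb downstream of the nearest EGFR TSS, with a median of 213 copies. The one near VWC2 reached the number where counting stopped. Mitochondrial 31-mers were found in 7 members (0.0947%), against 0.106% of strong intronic, 0.183% of strong gene desert and 0.0273% of all hotspots used. A member of 5957 bp near OR4F16 with a score of 138 held 3679 of them, and a member near RNF141 held 687.

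A pair of repeat families made up a large part of the multi-copy members. Members were linked where they shared 31-mers worth at least 30% of the length of the shorter one, a rule set after the values were seen. Links can chain, so members of the same family need not all share a sequence. The largest family had 1251 members (16.9%), nearest to 877 genes on 21 chromosomes, with a median width of 230 bp and a median score of 14.7. The second had 668 members (9.04%), nearest to 535 genes, with a median width of 676 bp, a median score of 16.6 and a median GC content of 66.7%. Another had 37 members, and 5019 members were linked to no other.

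At least 1 of the 31-mers common in the second family was held by 663 members (8.97%), against 1.74% of weaker intergenic, 7.98% of strong intronic and 2.94% of strong gene desert hotspots. For the first family this was 603 members (8.16%), against 5.82%, 11.4% and 16.2% in the same order. That is fewer than the 1251 members of the family, so many of them hold none of its common 31-mers. Both families and their 31-mers were taken from the members. The shares of members thus follow in part from that choice, and the differences between sets were not tested. The YY1 site (ATGGCGGC) was in 19.3% of the central windows of the second family and 0.0799% of those of the first, with 1.10% in all hotspots used. The SOX site (ACAATGG) was in 12.1% of the second family and 20.6% of the first, with 4.63% in all hotspots used. AP-1 sites were in 0% of the second and 0.639% of the first. Copies of 1 repeat are not independent regions, and the intervals above and below, that of the single-copy share among them, do not allow for that.

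AP-1 sites were counted in the 300 bp around each midpoint. They were in 1410 of 7392 members (19.1%), against 10.8% of weaker intergenic hotspots, 11.5% of all hotspots used and 4.49% of flanking windows without a hotspot. The difference from weaker intergenic hotspots was 8.30 points (interval 6.67 to 10.0), and it did not pass the test against strong intronic hotspots, 20.7% of which held the site (difference -1.66 points, interval -3.83 to 0.53). Strong gene desert hotspots held it in 15.8% (difference 3.26 points, interval 0.99 to 5.50). Intervals for motifs are at the 99.9% level, adjusted for 84 comparisons, and cover counting error only.

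The contrast was larger in unique sequence. AP-1 sites were in 33.1% of single-copy members, against 15.1% of single-copy weaker intergenic hotspots (difference 17.97 points, interval 15 to 21.0), 36.5% of strong intronic (difference -3.46, interval -7.34 to 0.46) and 43.0% of strong gene desert hotspots (difference -9.92, interval -15 to -4.85). Against gene desert hotspots the direction thus turned: the share was higher in all members and lower in single-copy members. In multi-copy members it was in 3.42%, against 3.88% of multi-copy weaker hotspots. Over the whole hotspot, 44.2% of single-copy members held at least 1 AP-1 site, 11.7% held 2 or more and 56 members held 3 or more. At least 1 was in 15.2% of weaker, 48.2% of strong intronic, 52.9% of strong gene desert and 18.01% of all single-copy hotspots used. For 2 or more sites the shares were 1.57%, 12.3%, 13.6% and 2.68% in the same order. AP-1 density in single-copy members was 0.886 sites per kb, a measure that takes width into account. It was 0.558 in weaker, 1.04 in strong intronic, 1.25 in strong gene desert and 0.503 in all single-copy hotspots used. The single-copy differences over the whole hotspot and in density were not tested.

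**Figure D2:**
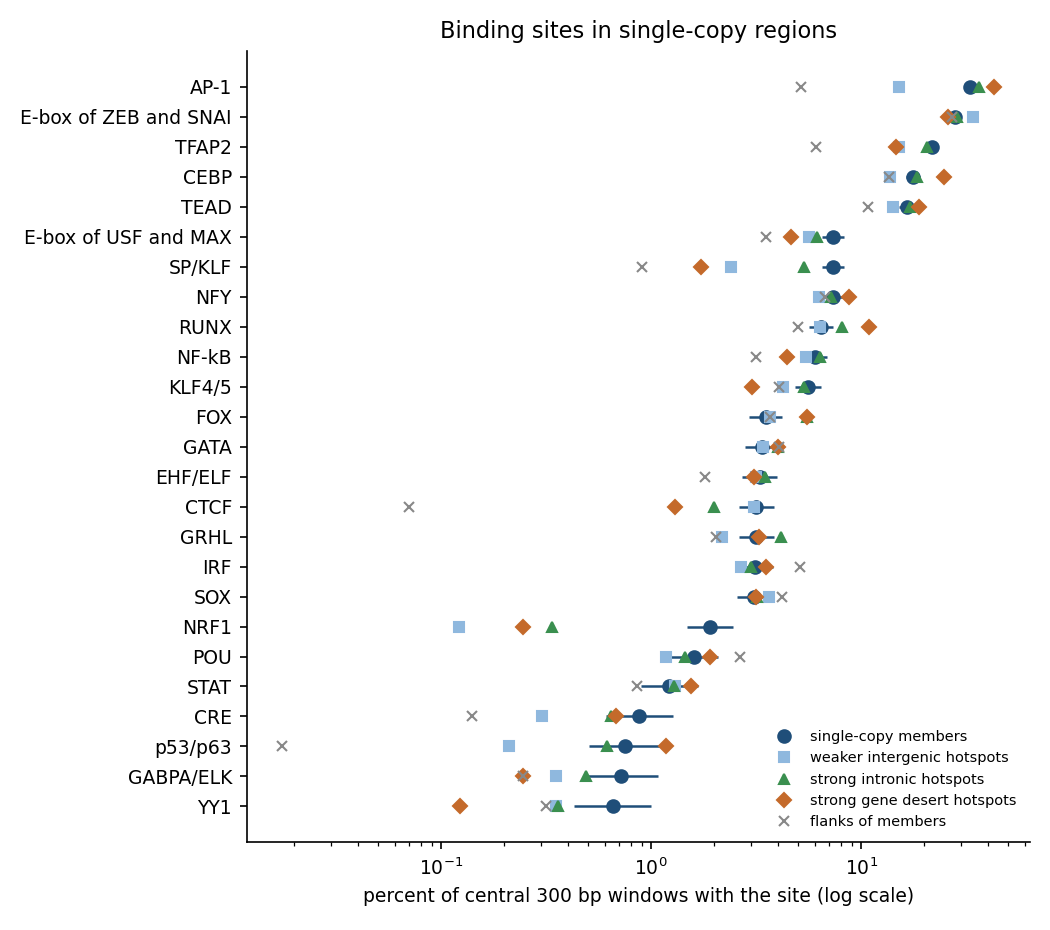
Percent of central 300 bp windows with each site (x axis, log scale) in single-copy members, with 95% Wilson intervals, and in single-copy weaker intergenic, strong intronic and strong gene desert hotspots and flanks of members. Sites in at least 0.5% of members are drawn, and a share of 0, as for NRF1 in the flanks, is not drawn. AP-1 led at 33.1% of members, against 15.1% of weaker hotspots.

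AP-1 sites were centred on the midpoints. In single-copy members, 87.3 sites per 1000 regions and 50 bp fell in the central 100 bp, against 9.0 in the outermost 100 bp of a 1000 bp reach, a ratio of 9.70. In single-copy weaker hotspots that ratio was 4.05, and in multi-copy members 1.26. CTCF sites were also central, with 46 in the central 100 bp of single-copy members and 1 at the edges, but at 7.2 per 1000 regions and 50 bp they were no denser than in single-copy weaker hotspots, at 9.36. TEAD sites (CATTCCA or CATTCCT), read by the partners of YAP, were 1.81 times as dense there as at the edges.

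**Figure D3:**
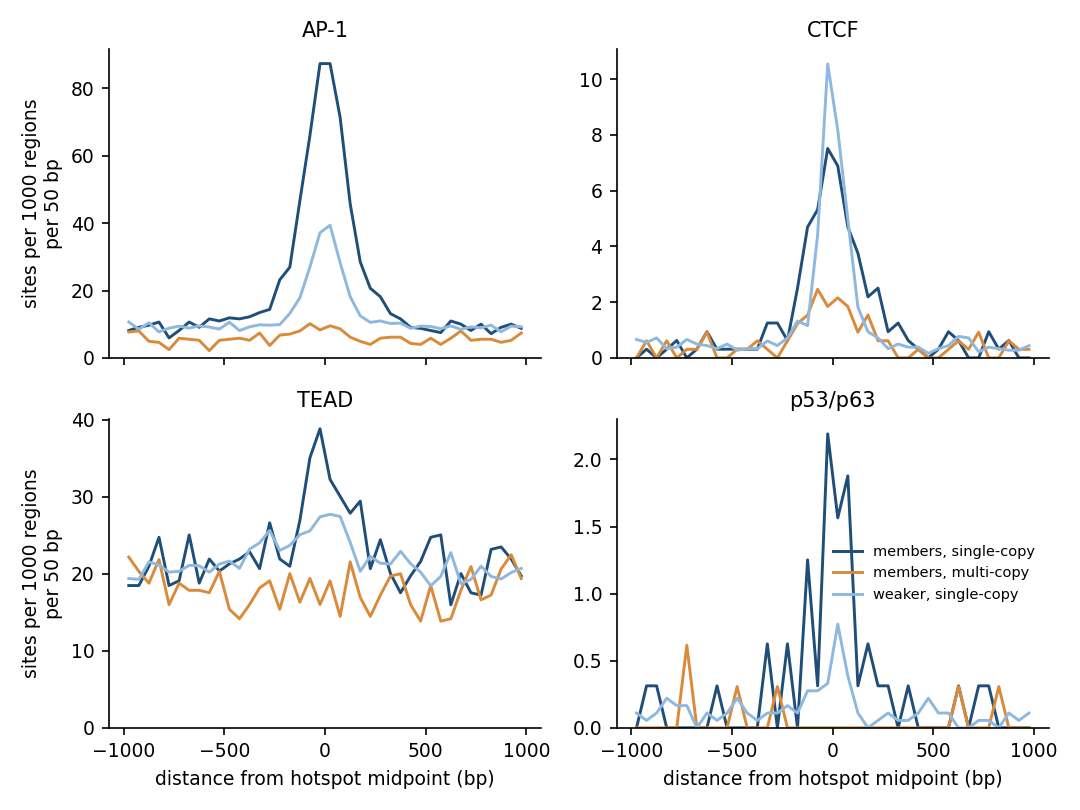
Sites per 1000 regions per 50 bp (y axis) by distance from the hotspot midpoint in bp (x axis), for AP-1, CTCF, TEAD and p53/p63 in single-copy members, multi-copy members and single-copy weaker intergenic hotspots. AP-1 reached 87.3 at the centre of single-copy members, and p53/p63 rests on 12 sites in the central 100 bp.

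Of 28 site types, 11 were more frequent in members than in weaker intergenic hotspots, 2 were rarer, and the test was not passed by the other 15. In single-copy regions 8 were more frequent and 1 less. NRF1 sites were in 1.91% of single-copy members, against 0.121% of single-copy weaker hotspots, the largest ratio of the 28 there, and SP/KLF sites (GGGGCGGG) in 7.36% against 2.40%. Both were also more frequent than in strong intronic hotspots, at 0.335% and 5.34%. TFAP2 sites (GCCNNNGGC), read by AP-2 factors of epithelia, were in 21.7% against 15.2%, and CEBP sites (TTGCNNAA) in 17.6% against 13.7%. Neither passed the test against strong intronic hotspots, at 20.5% for TFAP2 and 18.5% for CEBP, and CEBP sites were less frequent than in strong gene desert hotspots, at 24.8% (difference -7.15 points, interval -11.6 to -2.89). The p53/p63 site, which the basal regulator p63 reads, was in 24 single-copy members (0.751%), against 0.210% of single-copy weaker hotspots, and did not pass the test against strong intronic (0.619%) or strong gene desert hotspots (1.17%). The CRE (TGACGTCA), the site of cAMP-responsive CREB and ATF factors, was in 28 (0.876%), against 0.304%, and did not pass it against strong intronic (0.645%) or strong gene desert hotspots (0.678%).

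The site of ZEB and SNAI repressors (CAGGTG) was less frequent, in 28.1% of single-copy members against 34.1% of weaker hotspots. It did not pass the test against strong intronic (28.6%) or strong gene desert hotspots (25.9%), and was in 27.0% of flanks of members. RUNX sites (TGTGGTT) did not pass the test against weaker hotspots, at 6.42% against 6.38%. Nor did TEAD sites, at 16.5% against 14.2%, and GRHL sites (AACNGGTT), at 3.16% against 2.18%. CTCF sites did not pass it either, at 2.15% of members against 1.90% of weaker intergenic hotspots (difference 0.25 points, interval -0.32 to 0.95), with 1.28% in all hotspots used. Against strong intronic hotspots, 1.19% of which held a CTCF site, members were higher by 0.96 points (interval 0.27 to 1.71), but the test was not passed in single-copy regions (1.17 points, interval -0.12 to 2.57), in 120 bp windows (0.34) or at score thresholds of 15 (0.54) and 20 (0.70). Against strong gene desert hotspots, at 0.484%, members were higher by 1.67 points (interval 1.01 to 2.36). In single-copy regions that difference was 1.87 points (interval 0.22 to 3.28). Over the windows of all single-copy hotspots used, the site was in 13.2% for TEAD, 6.41% for SP/KLF, 1.04% for NRF1, 18.7% for TFAP2, 12.9% for CEBP, 0.227% for p53/p63, 0.505% for CRE, 6.19% for RUNX, 2.21% for GRHL and 31.4% for ZEB and SNAI.

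Within single-copy members, 480 were CpG-rich, with at least 50% GC, a CpG ratio of at least 0.6 and a width of at least 200 bp, and 2715 were not. The CpG-rich share was 15.02% of single-copy members, against 2.98% of weaker intergenic, 5.94% of strong intronic, 4.19% of strong gene desert and 13.4% of all single-copy hotspots used. The width limit of 200 bp bars more of the narrower weaker hotspots. Their lower width quartile, over all copy classes, was 193 bp, against 324 bp in members. The split into CpG-rich and other members was made after the values were seen and is given with no test. CpG-rich members scored a median of 17.4, and other members 13.8. Of CpG-rich members 45.6% lay at a lncRNA promoter, and of other members 10.0%. AP-1 sites were in 6.25% of CpG-rich members and 37.8% of other members, whereas SP/KLF sites were in 29.8% and 3.39% and NRF1 sites in 11% and 0.295%. SP/KLF and NRF1 sites themselves hold CpG and AP-1 sites do not, so these shares follow in part from how the split was made. Among members that were not CpG-rich, CTCF sites were in 1.27% of those with an AP-1 site and in 4.32% of those without one. TEAD sites were in 16.9% of those with an AP-1 site and in 19.1% of those without.

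Distance from the TSS went with both kinds. From 1 to 5 kb, 5 to 10 kb, 10 to 25 kb, 25 to 50 kb and 50 to 100 kb, AP-1 sites were in 26.4%, 29.9%, 30.9%, 34.1% and 37.9% of single-copy members. CpG-rich regions made up 27.3%, 19.7%, 17.6%, 12.3% and 8.84% over the same bins. In single-copy weaker hotspots AP-1 shares stayed between 14.2% and 16.5%, while CpG-rich shares also fell, at 6.47%, 4.38%, 2.99%, 2.18% and 1.93%. The trends are descriptions, and the difference between members and weaker hotspots in the trend was not tested.

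**Figure D4:**
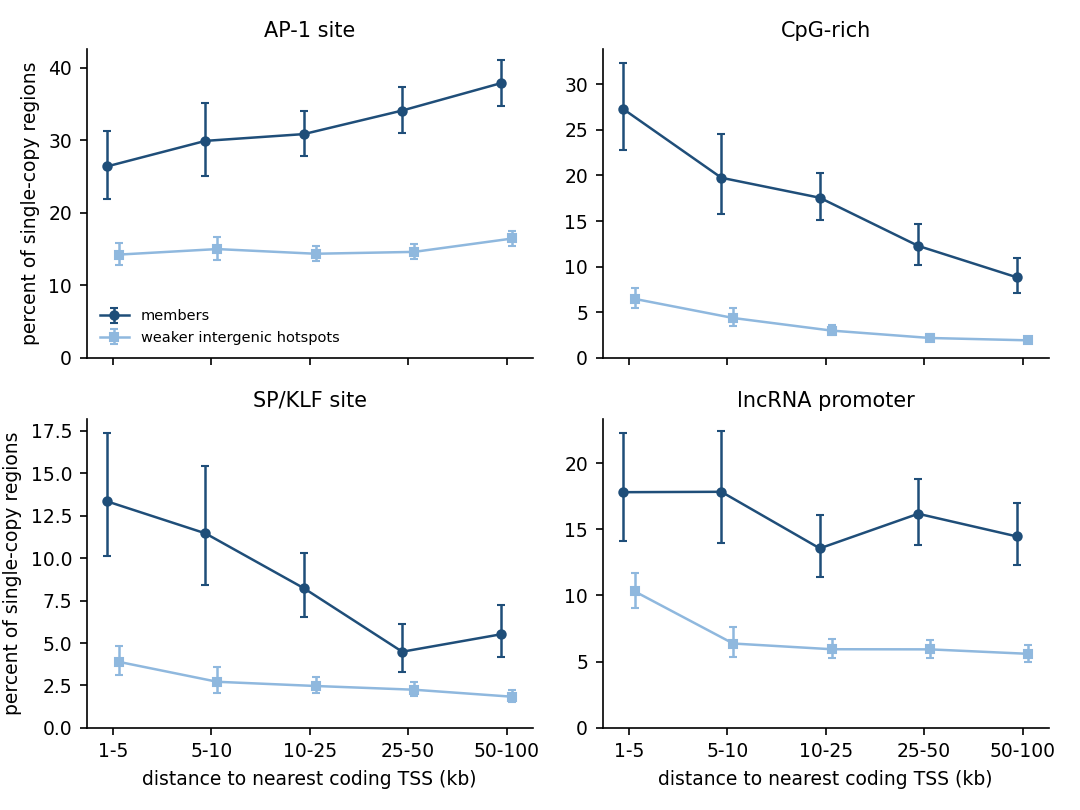
Percent of single-copy regions (y axis) with an AP-1 site, CpG-rich, with an SP/KLF site or at a lncRNA promoter, by distance to the nearest coding TSS in kb (x axis), in members and weaker intergenic hotspots. Bars are 95% Wilson intervals; AP-1 shares of members run between 26.4% and 37.9% and CpG-rich shares between 27.3% and 8.84%.

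Promoters of lncRNA genes, which are not protein-coding, were part of the members. Overlap with the 1000 bp on either side of a lncRNA TSS was seen in 891 members (12.1%), against 5.10% of weaker intergenic hotspots (difference 6.96 points, 95% interval 6.2 to 7.75), 2.96% of strong intronic, 6.24% of strong gene desert and 5.45% of all hotspots used. Counted by midpoint, which does not depend on width, the shares were 11.1% of members and 4.56% of weaker hotspots. Among single-copy regions 15.4% of members and 6.35% of weaker hotspots overlapped. A midpoint inside a lncRNA gene was seen in 28.4% of members, against 24.5% of weaker intergenic, 33.2% of strong gene desert and 18.6% of all hotspots used.

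Of the 12 highest-scoring single-copy members, several lay at named lncRNA promoters. The first, near ZNF14, scored 59.0 at LINC00663, the one near ERVMER34-1 scored 48.9 at DANCR, and the one near CHD2, a chromatin remodeller, scored 48.5 at CHASERR. Others lay at none, such as those near SERTAD2 (56.4), CCNE1, which encodes cyclin E (50), FEM1B (45.1) and MYC (43.7). Those near DYNC1H1 (48.5), NR4A3 (44) and NLK (43.6) lay 16.3, 1.97 and 1.10 kb upstream of the TSS.

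Members lay upstream of the nearest TSS in 66.0%, against 67.3% of weaker intergenic hotspots (difference -1.23 points, 95% interval -2.42 to -0.05), a difference that did not pass the test in 7 alternatives, single-copy regions among them (-0.85). The share fell with distance in both, to 56.1% of members and 56.7% of weaker hotspots at 50 to 100 kb, against 86.5% and 89.4% at 1 to 5 kb. Both sets leave out midpoints inside protein-coding genes, which bars many places downstream of a TSS, most of all close to it. The part of that rule in these shares was not tested. The upstream share was 49.2% in strong gene desert hotspots and 45.9% in all hotspots used. Another hotspot lay within 1000 bp of the nearest TSS for 63.6% of members and 63.3% of weaker hotspots (difference 0.27, 95% interval -0.94 to 1.47). The share was 50.3% in strong intronic, 55.3% in strong gene desert and 53.3% in all hotspots used. In single-copy regions members and weaker hotspots had 68.4% and 63.2% (difference 5.26, 95% interval 3.49 to 7.0), with 52.3% in all hotspots used. In multi-copy regions they had 57.4% and 62.4%, with 53.6% in all hotspots used. A neighbouring hotspot lay within 5 kb of 72.1% of members, against 65.5% of weaker hotspots. It was 68.0% of strong intronic, 65.3% of strong gene desert and 62.8% of all hotspots used. For members and weaker hotspots the shares were 67.6% and 65.6% in single-copy regions and 76.6% and 65.6% in multi-copy regions. Single-copy strong intronic hotspots had 66.1% (difference 1.51 points, 95% interval -0.70 to 3.71).

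The members were nearest to 4324 of 17752 protein-coding genes considered (24.4%), and single-copy members to 2299 (13.0%). Of these genes 2644 had 1 member and 170 had 5 or more. The genes with the most members were VPREB1 (11), INSIG1 and KCNJ18 (10 each), and ITGB6, LRRC37A3, POU5F1B and PPIAL4G (9 each), followed by 10 genes with 8, among them ETS2 and FZD10. At VPREB1, KCNJ18 and PPIAL4G most were multi-copy (10 of 11, 9 of 10 and 6 of 9).

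The genes with the most single-copy members were chosen for mention after their values were seen. ITGB6, an epithelial integrin that activates TGF-beta, had 9, all upstream, from 5.16 to 57.0 kb away, with scores of 25.9, 17.3, 12.4, 14.3, 17.3, 16.1, 13.5, 13.9 and 14.3 in order of distance, and 4 of them held AP-1 sites. The rule bars midpoints inside the gene, and so many places downstream of its TSS. ETS2, a transcription factor that responds to growth signals, had 8 members, 5 with AP-1 sites, and its highest score, 31.6, lay 97.5 kb downstream. SMAD7, an inhibitor of TGF-beta signalling, IER5, an immediate early gene, and WNT7B, a WNT ligand, had 7 each. HES1, a NOTCH target, had 6, of which 5 held AP-1 sites, with scores between 15 and 36.4. MYC had 6, the highest, 43.7, 66.7 kb upstream with 2 AP-1 sites, and others at the promoters of CASC11 and PVT1.

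**Figure D5:**
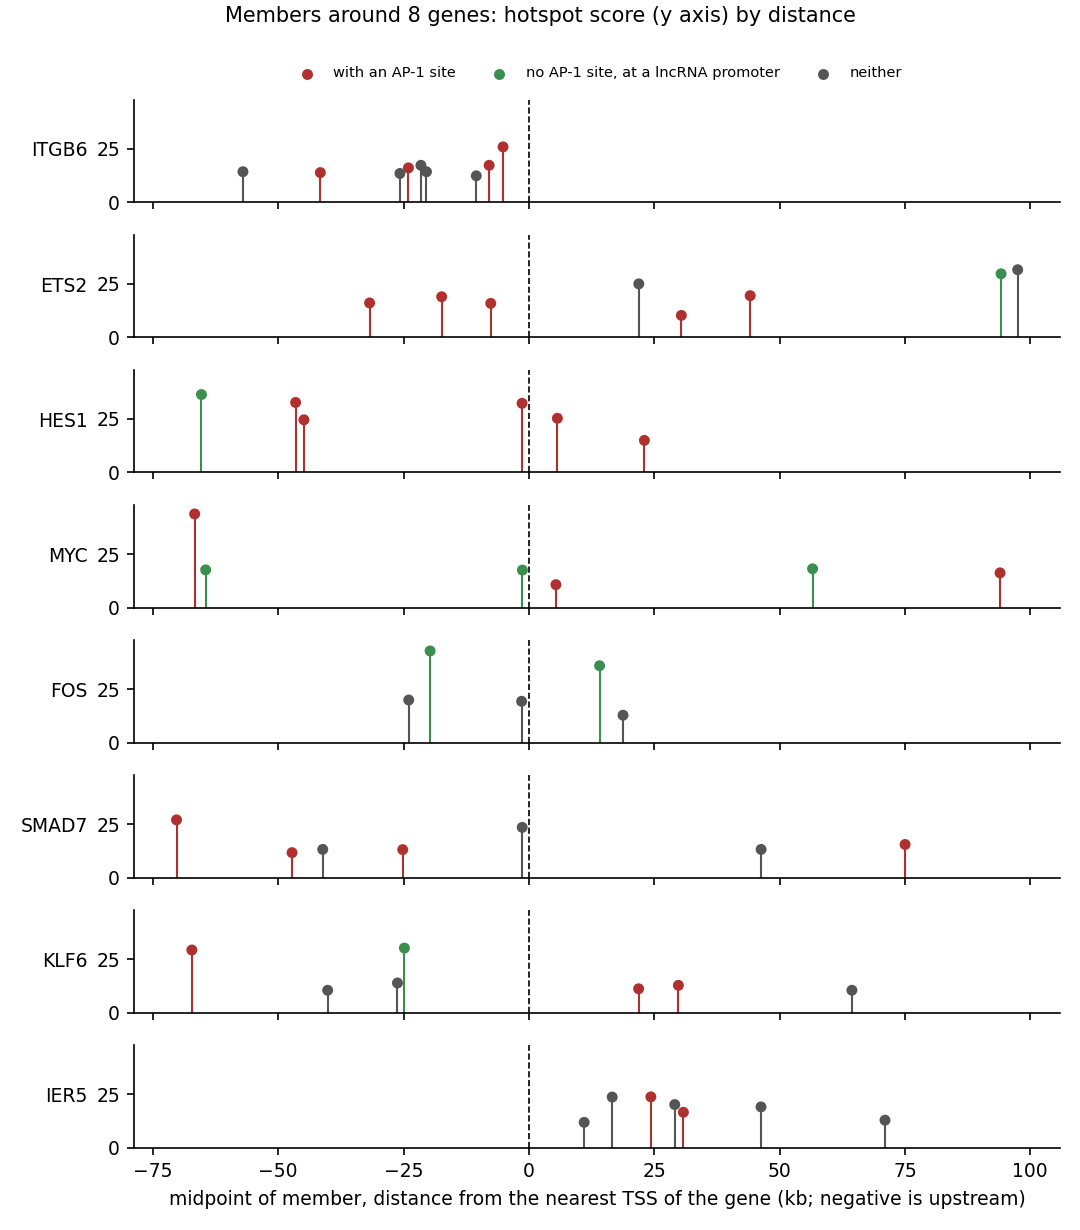
Hotspot score (y axis) of each member against its distance from the nearest TSS of the gene in kb (x axis, negative is upstream) for 8 genes, with colours for an AP-1 site in the hotspot and for a lncRNA promoter without one. All 9 members of ITGB6 lie upstream, and 0 of the 5 members of FOS hold an AP-1 site. Midpoints inside protein-coding genes are barred by the rule.

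Gene lists are given by counts, beside 24.4% of all genes with a member. Of 19 EGF response and AP-1 genes, 14 had a member (73.7%), with 36 members in all. FOS, JUN and DUSP5, a phosphatase that restrains ERK, had 5 each, MYC 6, IER2 3, and FOSL2, DUSP6 and PHLDA1 2 each. The members of FOS scored 42.8, 35.9, 19.9, 19.3 and 12.8, and none held an AP-1 site, while 3 of the 5 of JUN did. Of 21 basal mammary markers, 12 had a member (57.1%), all with a single-copy one. KRT17, a basal keratin, had 3, with scores of 14.8, 23.6 and 30.6 at 26.9 to 31.1 kb upstream. TP63, which encodes p63, had 2, with 15.4 and 11.3, and DSC3, a desmosome cadherin, LAMB3, a laminin chain, and MYLK, a contractile kinase, had 2 each. EGFR had 4, of which 2 were single-copy.

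Of 22 luminal markers, 11 had a member (50%). ELF3, an epithelial ETS factor, and GRHL2, a regulator of epithelial junctions, had 5 each, and CLDN3, EHF and KRT8 had 2 each. Of 14 glucocorticoid and cAMP response genes, 10 had a member, but 7 had a single-copy one. All 6 members of NR4A2, a nuclear receptor induced by cAMP, were multi-copy, and PDE4B and SGK1 had 2 each. Of 13 YAP and TEAD targets, 4 had a member: AMOTL2, a YAP inhibitor, with 5, and CCN1, F3 and YAP1 with 1 each.

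Markers of other cell types had members as well. Of 14 mesenchymal genes, 8 had a member (57.1%) and 4 a single-copy one: ZEB2 with 2, and COL1A2, FN1 and SNAI2 with 1. COL3A1, THY1, TWIST2 and VIM had multi-copy members only. Of 12 immune genes, 4 had a member: MS4A1 had 2 and CD3D had 1, all multi-copy, and CD3E and ITGAM had 1 single-copy member each. Of 12 neuronal genes, 3 had one, GRIN1, MAP2 and NEUROD2, and of 11 hepatocyte genes 0 had. Lists differ in the intergenic space around their genes, and the part of that in these counts was not tested. The share of hotspots that were members ranged from 3.57% on chromosome 21 to 5.82% on chromosome 1.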

How the data were processed

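The deposited list gives, per hotspot, a chromosome, start, end and score. The score is the value that the authors' run of Hotspot (version 4.1) wrote into the deposited list. The authors aligned paired reads to hg38 with Bowtie2 (version not given in the sources used here), merged the 5 replicates, removed duplicates and called hotspots at a false discovery rate of 0.01. Whether mitochondrial reads or multiple alignments were removed, or Tn5 cut sites shifted, is not given for the calls. The score was used as given, to select members. What it is relative to is not stated.

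TSSs were those of coding transcripts of protein-coding genes (78449 TSSs of 19689 genes). Distances run to the nearest of these, which can be an alternative TSS inside the gene and not its first. Copies of 31-mers were counted over 25 chromosomes on both strands. Windows of 300 bp around midpoints were searched on both strands for 28 consensus sites, written from general knowledge: besides those spelled in the results, KLF4/5 (GGGTGTGG), NFY (CCAATCA or CCAATGA), EHF/ELF (CAGGAAGT), GABPA/ELK (CCGGAAGT), POU (ATTTGCAT), STAT (TTCCNGGAA), the FOX family of forkhead factors (TGTTTAC), the E-box of USF and MAX (CACGTG), the GATA family of zinc finger factors (AGATAAG), and, by name alone, IRF, NFI, NRF1, CTCF, p53/p63 (1 mismatch allowed), NF-kB, the glucocorticoid receptor and REST. Sites of CTCF, REST, NFI, the glucocorticoid receptor and p53/p63 can hold a shorter site of the list. Shares carry Wilson intervals and differences Newcombe intervals, which cover counting error only.

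Genes were named by rule: those nearest to the 12 highest-scoring members, the 10 with the most members, list genes with at least 2 members, and every gene of the other cell types with a member. Names of genes with many single-copy members and of the 12 highest-scoring single-copy members were chosen after their values were seen. Members and lists were chosen with earlier results of these data known. Motif search, copy counting and intervals were tested on simulated data. Alternatives were other windows, score thresholds, distance limits and gene models. Software was Python 3.11.15 with numpy 2.4.6, pandas 2.3.3, scipy 1.17.1, numba 0.67.0 and matplotlib 3.10.9. Some named genes and the sequences of the repeat families are not reported here.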

Additional observations from a re-analysis of the deposited data

How the results depend on the processing

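The higher AP-1 share of members than of weaker intergenic hotspots ranged from 2.53 to 17.97 points over 13 alternatives, and it passed the test in each but a score threshold of 20 (2.53 points). The higher lncRNA promoter share (3.32 to 12.6 points) and the lower single-copy share (-16.9 to -5.90 points) passed in every alternative run. Their intervals take every region as independent, copies of a repeat among them. The CTCF difference from weaker intergenic hotspots was higher with the whole hotspot as window (1.37 points) and a score threshold of 7 (1.33), and turned to lower at thresholds of 15 (-0.92) and 20 (-1.14). Members are wider, and per kb of whole hotspot CTCF sites numbered 0.0599 in members and 0.0749 in weaker intergenic hotspots. The CTCF difference from strong intronic hotspots no longer passed with a window of 120 bp (0.34), thresholds of 15 (0.54) and 20 (0.70), or single-copy regions alone (1.17). At a threshold of 7 the AP-1 share was lower than in strong intronic hotspots (-1.71).

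The lower upstream share did not pass at thresholds of 7 (-0.0588) and 15 (-1.10), with midpoints in no gene of any type (-0.72), a lower distance limit of 5 kb (-0.78), whole hotspots outside coding genes (-1.11), single-copy regions (-0.85), or, chosen after seeing the data, TSSs of every transcript (-1.04). Another hotspot at the nearest TSS was more frequent in single-copy members (5.26). Members numbered 14237, 3541 and 1985 at thresholds of 7, 15 and 20, and 3195 in single-copy regions. With a link of 50% of the shorter member, chosen after seeing the data, the largest repeat family had 620 members. The causes of these changes were not tested. The single-copy share could not be computed within single-copy regions.

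No paired analysis was possible because the replicates were pooled before the calls, and for the same reason no replicate was left out. The depth is unknown.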
